A study of Mus musculus with 5 samples.

Results

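The ID inhibitors (Id1, Id2, Id3 and Id4) and the E proteins (Tcf3, Tcf4 and Tcf12) were examined as 7 of the 24843 genes in the deposited tables. The members were the genes whose RefSeq transcripts carry these symbols, and the values of their 20 transcripts were summed per gene. RNA-seq was available for primary neural stem cells (NSCs, 2 replicates) and for the STO line of mouse SIM embryonic fibroblasts (3 replicates), both of strain C57BL/6 by their labels and with no engineered allele or drug treatment named in them. The paper describes STO cells as derived from SIM mouse embryos, so a strain shared with the NSCs rests on the labels alone. The NSCs came from embryonic cortex and were grown for 5 to 8 passages on coated dishes in neural basal medium with EGF and bFGF at 20 ng/ml each, heparin and 2% B27. The STO cells were past passage 30 and were kept in DMEM with 10% fetal bovine serum, so that cell type and medium cannot be told apart in these data. STO is a single long-passaged line, resistant to thioguanine and ouabain, and the labels do not say whether its replicates, or those of the NSCs, came from separate cultures, so the p-values measure the spread between these samples only.

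E proteins are widely expressed basic helix-loop-helix (bHLH) transcription factors. They pair with each other or with tissue-restricted bHLH factors, such as the proneural factors of the nervous system, and bind E box DNA through their basic regions. ID proteins have the helix-loop-helix but no basic region, so a pair of an ID and an E protein does not bind DNA, and the ID genes are well-known targets of BMP signaling through SMAD factors. In neural progenitors ID proteins are known for holding back differentiation, and in fibroblasts for their link with serum and growth.

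Levels are given in FPKM, which scales fragments by transcript length and library depth, so that different genes can be compared. Over the whole table, FPKM added up to 442905 and 446393 in the NSC libraries and to between 385485 and 399970 in the STO libraries. No read counts came with them, and the fragments behind a value were estimated from its deposited confidence interval. The labelled cell types were checked by their markers. All 7 neural stem cell markers passed the test in favour of NSCs. Their summed level was 3838 to 4057 FPKM in NSCs against 11.2 to 12.9 FPKM in STO cells. Fabp7, at 2783 and 3041 FPKM, made up most of the NSC sum, and Notch1, at 11.2 to 12.8 FPKM, nearly all of the STO sum. Pax6 was the lowest of these markers in NSCs, at 5.04 and 5.22 FPKM (above 29.6% of the genes tested). All 7 fibroblast markers passed in favour of STO cells, with a summed level of 2663 to 2799 FPKM. The same sum was 11.7 FPKM in NSC replicate 2 and nearly the same in replicate 1. Differences were tested with limma on log2(FPKM + 1) over all 12277 genes with a mean of at least 1 FPKM in either cell type, and a gene was called at a Benjamini-Hochberg adjusted p-value under 0.05. All 7 members passed the filter.

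All 7 members differed between the cell types in this fit, Id1, Id4 and Tcf3 being higher in STO cells and Id2, Id3, Tcf4 and Tcf12 lower. Calls were common in this comparison, since 85.7% of the genes tested were called, 41.9% as higher and 43.7% as lower in STO cells. The FPKM values of the 2 cell types did not overlap for any member, as for 90% of the genes tested. A call is therefore no mark of these genes, and the sizes of the differences are what sets them apart from each other. With a difference of at least 1 on the log2(FPKM + 1) scale also required, 38.4% of the genes tested were called, and 4 of the members, Id1 and Id4 as higher and Id3 and Tcf4 as lower. An absolute difference larger than that of Id1 was found for 5.74% of the genes tested, larger than that of Id4 for 13.0%, of Tcf4 for 18.7%, of Id3 for 36.1%, of Tcf12 for 42.1%, of Tcf3 for 63.7% and of Id2 for 79.4%.

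**Figure D1:**
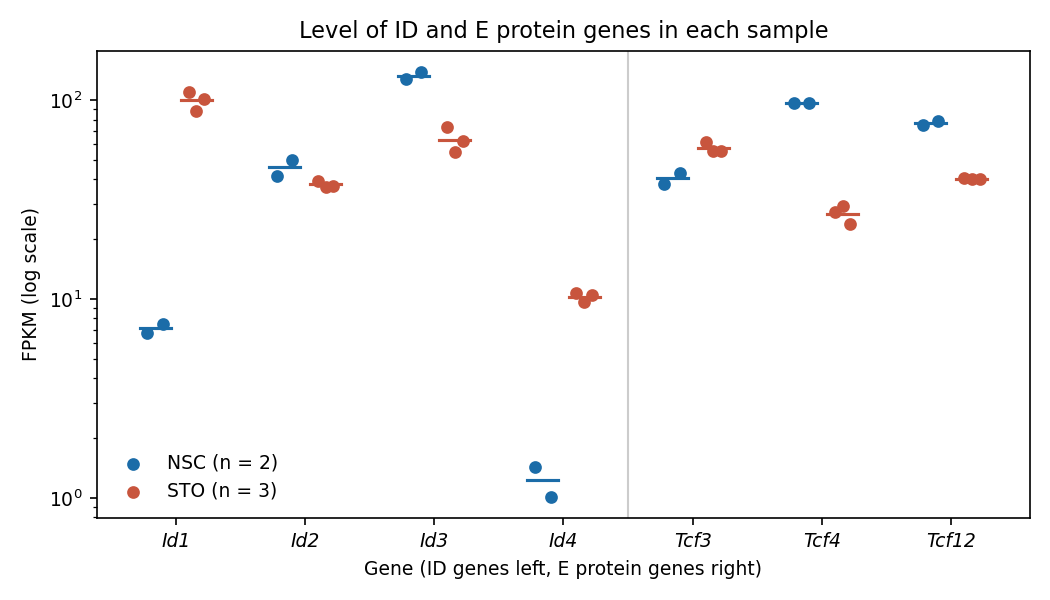
Level of each member in FPKM on a log scale, with 1 point per sample (blue, the 2 NSC samples; red, the 3 STO samples) and a line at the mean of each cell type. The points of the cell types do not overlap for any gene, Id1 and Id4 lie far higher in STO cells, and Id2 shows the smallest gap.

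Among the ID genes, Id1 and Id4 were far higher in STO cells, Id3 was lower and Id2 differed little. Id1 stood at 6.74 and 7.49 FPKM in the NSC samples and at 110, 88.2 and 102 FPKM in the STO samples. It was thus among the less abundant of the genes tested in NSCs (above 37.4% of them) and among the most abundant in STO cells (above 94.9%). Its mean was 7.11 ± 0.529 FPKM in NSCs (SD, n = 2) and 100.2 ± 11.2 FPKM in STO cells (SD, n = 3), a ratio of 14.1, and the difference of log2(FPKM + 1) was 3.64 ± 0.10 (SE, limma adjusted p = 2.27e-07). The NSC values rest on an implied 179 and 214 fragments, against 1106 to 1356 in the STO samples, so that counting error is small beside this difference. Id1 (chr2:152561987-152563146 in mm9, plus strand) is a short gene of 1160 bases, and all of its signal was assigned to NM_010495, while the other listed transcript was at 0 in every sample.

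Id3 was the most abundant of the 7 members in NSCs, at 128 and 139 FPKM. In STO cells it stood at 73.1, 54.7 and 62.8 FPKM, below both NSC samples. The mean fell from 133 ± 7.86 FPKM (SD, n = 2) to 63.5 ± 9.24 FPKM (SD, n = 3), a 2.10-fold lower level in STO cells, with a difference of log2(FPKM + 1) of -1.07 ± 0.12 (SE, limma adjusted p = 2.2e-04). Id3 (chr4:135699737-135701307, plus strand) therefore moved opposite to Id1, its close relative. Within a single NSC sample Id3 exceeded Id1 by 19.0 and 18.6 times, whereas within each STO sample Id1 exceeded Id3 by 1.51, 1.61 and 1.62 times. These ratios are taken inside a library and do not depend on the scaling between samples.

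Id4 was the least abundant member in both cell types. It had 1.44 and 1.01 FPKM in NSCs, which rests on an implied 71.2 and 53.6 fragments, and 10.7, 9.67 and 10.5 FPKM in STO cells. All STO samples lay far above both NSC samples. The means were 1.23 ± 0.299 FPKM (SD, n = 2) and 10.3 ± 0.542 FPKM (SD, n = 3), a ratio of 8.40, with a difference of 2.35 ± 0.09 on the log2(FPKM + 1) scale (SE, limma adjusted p = 1.21e-06). That scale understates the change of a gene this low in NSCs. Id4 (chr13:48356796-48359405, plus strand) overlaps exons of A330033J07Rik, a long noncoding RNA on the opposite strand, which was listed at 0 in every sample. The libraries were made with a stranded kit, but whether strand was used in the counting is not given in the sources used here.

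Id2 differed least. Its levels were 41.8 and 50.3 FPKM in NSCs and 39.4, 36.7 and 37.2 FPKM in STO cells, and the gap between the lower NSC sample and the highest STO sample was small beside the spread of the NSC samples. The means were 46.1 ± 6.02 FPKM (SD, n = 2) and 37.8 ± 1.46 FPKM (SD, n = 3), and the difference of -0.27 ± 0.09 on the log2(FPKM + 1) scale (95% confidence interval -0.49 to -0.06) had a limma adjusted p of 0.024. This call was lost when the values were rescaled to the same sum in each sample, as in TPM (-0.11, adjusted p = 0.27 by limma), a rescaling that moved the difference of the median gene by 0.17, with the replicate number as a block (-0.26, adjusted p = 0.059 by limma), and without NSC replicate 2 (-0.14, limma adjusted p = 0.097), STO replicate 2 (-0.25, 0.061) or STO replicate 3 (-0.26, 0.061). Where an NSC replicate is left out, here and for the genes that follow, the STO samples alone give the spread, and the lone NSC sample is assumed to vary like them. Id2 lies at chr12:25778664-25780957 on the minus strand.

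**Figure D2:**
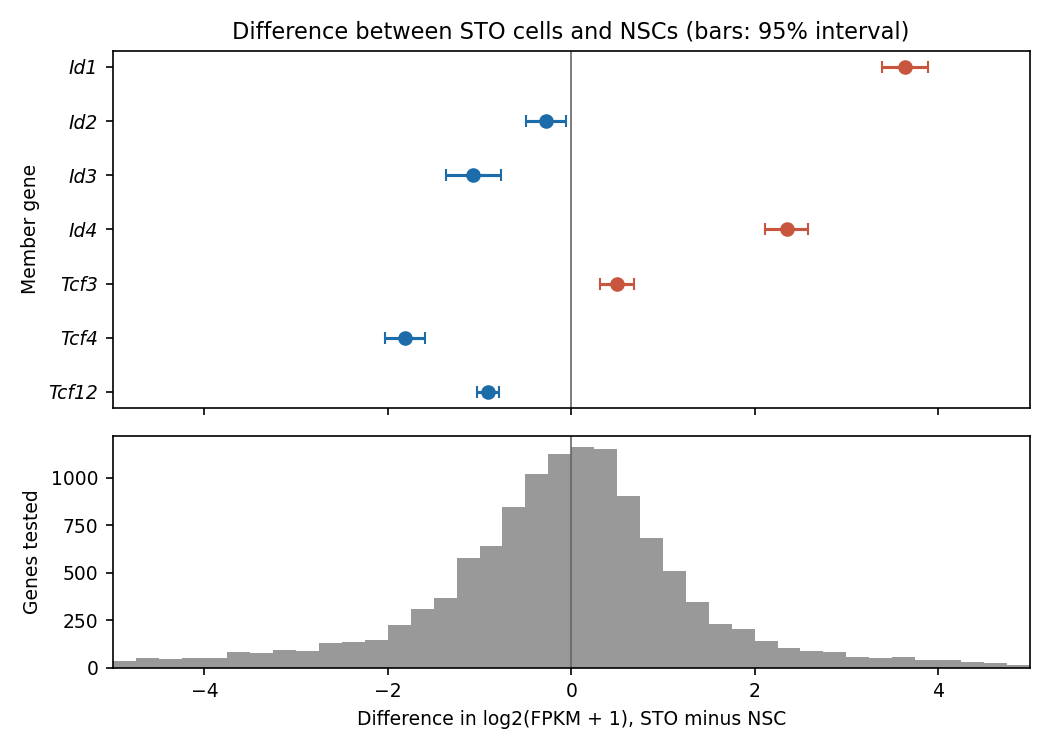
Difference of log2(FPKM + 1) between STO cells and NSCs for each member (upper panel, points with 95% confidence intervals from limma, red when higher in STO cells and blue when lower) above the same difference for the 12277 genes tested (lower panel, genes per bin, with 267 genes beyond the limits of -5 and 5 not shown). Id1 lies in the outer right part of the distribution of all genes and Id2 close to 0.

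Among the E proteins, Tcf4 and Tcf12 were lower in STO cells and Tcf3 was higher. Tcf4, which is strongly expressed in the developing brain, had 97.1 and 96.7 FPKM in NSCs and 27.5, 29.5 and 23.9 FPKM in STO cells. Every STO sample was far below both NSC samples, which were nearly equal. The mean fell from 96.9 ± 0.308 FPKM (SD, n = 2) to 26.95 ± 2.85 FPKM (SD, n = 3), a 3.60-fold lower level, and the difference of log2(FPKM + 1) was -1.81 ± 0.09 (SE, limma adjusted p = 3.56e-06). Tcf4 spans chr18:69504146-69847621 on the plus strand and is the bHLH gene of that symbol, not Tcf7l2, a gene of the WNT pathway that is often called by the same name.

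Both listed transcripts of Tcf4 fell. NM_001083967 had 54.0 and 51.3 FPKM in NSCs against 16.7, 19.6 and 14.1 FPKM in STO cells, and NM_013685 had 43.1 and 45.4 FPKM against 10.8, 9.90 and 9.81 FPKM. Their differences of log2(FPKM + 1) were -1.60 ± 0.14 and -2.02 ± 0.06 (SE, limma adjusted p = 4.57e-04 and 1.14e-05 over 16257 transcripts). In that fit 77.1% of transcripts were called, 38.1% as higher and 39% as lower. Of the members' transcripts 14 were tested, and of these 5 were higher, 6 lower and 3 not called, while the other 6 were at 0 in every sample. The split of a gene's reads among its transcripts is an estimate by Cufflinks.

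Tcf3 encodes the E proteins best known from B lymphocyte development. It had 38.2 and 43.0 FPKM in NSCs and 61.7, 55.6 and 55.8 FPKM in STO cells, again without overlap. The mean rose from 40.6 ± 3.41 FPKM (SD, n = 2) to 57.7 ± 3.47 FPKM (SD, n = 3), a ratio of 1.42, with a difference of 0.50 ± 0.08 on the log2(FPKM + 1) scale (SE, limma adjusted p = 9.9e-04). Tcf3 lies at chr10:79871910-79896398 on the minus strand, and 4 of its 8 listed transcripts were above 0. Of these, NM_011548 rose from 9.88 ± 0.587 FPKM in NSCs (SD, n = 2) to 22.4 ± 4.65 FPKM in STO cells (SD, n = 3; limma adjusted p = 0.0047) and NM_001164151 from 10.5 ± 3.78 FPKM to 18.6 ± 0.613 FPKM (SD, n = 2 and n = 3; limma adjusted p = 0.021). The difference of NM_011548 in log2(FPKM + 1) was 1.09, and it stayed at 1.14 without NSC replicate 1 and 1.03 without NSC replicate 2, although neither was called (limma adjusted p = 0.051 and 0.063). That of NM_001164151 was 0.81 and moved with the NSC samples, to 0.47 without NSC replicate 1 and 1.15 without NSC replicate 2, both called (limma adjusted p = 0.0083 and 0.0014). It stayed between 0.78 and 0.83 without any one of the STO replicates and at 0.81 with the replicate block, where it was not called (limma adjusted p = 0.053 to 0.060 and 0.069). NM_001164149 was listed at 0 in STO replicates 1 and 3 but at 8.93 FPKM in STO replicate 2, a wide spread within a cell type. Without STO replicate 2 this transcript was called as lower (difference -3.39, limma adjusted p = 1.32e-04) and NM_001164147 as higher (0.47, 0.018). The sum over the gene varied much less.

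Tcf12, also known as HEB, is an E protein gene whose transcripts moved in different directions. The whole gene had 75.1 and 78.6 FPKM in NSCs and 40.8, 40.4 and 40.0 FPKM in STO cells, with the STO samples nearly equal and well below the NSC samples. The mean fell from 76.8 ± 2.44 FPKM (SD, n = 2) to 40.4 ± 0.377 FPKM (SD, n = 3), a 1.90-fold lower level, with a difference of -0.91 ± 0.05 in log2(FPKM + 1) (SE, limma adjusted p = 5.3e-06). Tcf12 spans chr9:71692059-71959626 on the minus strand and has 5 listed transcripts with 3 start sites. A distal start lies at position 71959626, a second distal start 618 bases further in at 71959008, and an internal start at 71743903, which is 215723 bases from the first. The internal start falls in an intron of 3 transcripts of the GENCODE annotation for the same build. In that annotation the second distal start also falls in an intron of 3 transcripts, and the first distal start in an exon of 3.

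The 250 bases before each of these start sites are shown because the transcripts that begin there behaved differently. They were read 5′ to 3′ on the minus strand from the NCBIM37 genome, which is the same assembly as mm9, and capitals mark E boxes (CANNTG), the sites to which E proteins bind.
Tcf12 distal start, chr9:71959627-71959876: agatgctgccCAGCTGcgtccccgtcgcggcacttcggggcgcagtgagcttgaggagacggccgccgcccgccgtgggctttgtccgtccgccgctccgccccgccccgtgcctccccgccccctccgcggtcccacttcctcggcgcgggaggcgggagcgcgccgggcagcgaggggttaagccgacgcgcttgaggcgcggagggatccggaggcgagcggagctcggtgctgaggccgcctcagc
Tcf12 second distal start, chr9:71959009-71959258: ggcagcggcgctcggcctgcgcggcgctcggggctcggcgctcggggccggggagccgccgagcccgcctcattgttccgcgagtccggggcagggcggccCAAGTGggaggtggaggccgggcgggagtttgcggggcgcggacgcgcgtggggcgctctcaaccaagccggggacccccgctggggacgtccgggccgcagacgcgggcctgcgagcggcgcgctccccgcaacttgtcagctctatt
Tcf12 internal start, chr9:71743904-71744153: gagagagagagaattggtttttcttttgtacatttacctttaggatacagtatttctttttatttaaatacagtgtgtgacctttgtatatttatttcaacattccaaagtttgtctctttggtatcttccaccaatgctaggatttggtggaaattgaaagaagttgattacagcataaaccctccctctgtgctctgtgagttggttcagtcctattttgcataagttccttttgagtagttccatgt
The distal window held a single E box, CAGCTG, beginning 240 bases before the start, and the second distal window held CAAGTG 149 bases before it. No CANNTG was present in the internal window. CANNTG reads the same on both strands, and it was present in 66.2% of 32851 RefSeq promoters of the same length in GRCm38.p6, and CAGCTG in 13.0%, so these matches are a description of the sequence only. The windows differed clearly in base composition, with 76.8% and 78.0% G and C in the distal windows and 34.8% in the internal one. Of the RefSeq promoters 97.2%, 97.9% and 4.59% had a lower G and C content than the respective window.

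From the internal start, NM_001253864 had 37.1 and 35.3 FPKM in NSCs and 4.80, 6.98 and 8.50 FPKM in STO cells. All STO samples were far below both NSC samples, with means of 36.2 ± 1.25 FPKM (SD, n = 2) and 6.76 ± 1.86 FPKM (SD, n = 3) and a difference of -2.29 ± 0.22 in log2(FPKM + 1) (SE, limma adjusted p = 6.27e-04 over all transcripts). The 3 transcripts with distal starts summed to 38.1 and 43.3 FPKM in NSCs and to 36.0, 33.5 and 31.5 FPKM in STO cells. The internal start thus accounted for 49.3% and 44.9% of Tcf12 in the NSC samples and for 11.8%, 17.3% and 21.3% in the STO samples. As Cufflinks split the reads, 80.7% of the fall in the mean of Tcf12 came from the internal start and 19.3% from the distal starts. These shares depend on that split among overlapping transcripts. This grouping by start site was chosen after the values were seen and was not tested.

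Among the distal transcripts, NM_011544 had 38.1 and 43.3 FPKM in NSCs and 20.5, 22.8 and 23.7 FPKM in STO cells, a fall of -0.84 ± 0.09 in log2(FPKM + 1) (SE, limma adjusted p = 9.19e-04). NM_001253862, from the second distal start, was listed at 0 in both NSC samples and had 10.1, 10.7 and 7.78 FPKM in STO cells (limma adjusted p = 3.45e-05). NM_001253865 was above 0 in STO replicate 1 alone, at 5.35 FPKM, and was not called (limma adjusted p = 0.42). Cufflinks gave these transcripts the status OK in every sample, so none of these values of 0 was marked as a failed estimate. Whether they come from the way reads were split among transcripts was not tested.

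**Figure D3:**
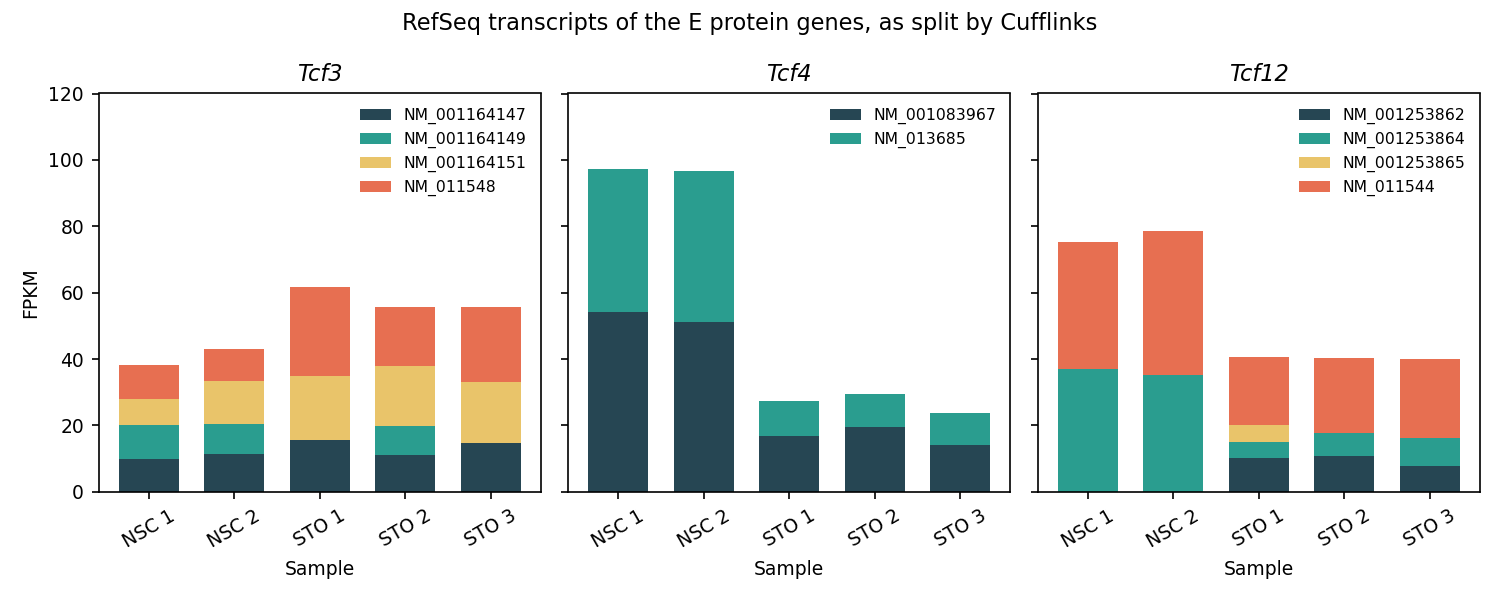
FPKM of the RefSeq transcripts of Tcf3, Tcf4 and Tcf12 that were above 0, stacked per sample (2 NSC and 3 STO samples) as Cufflinks split them. In Tcf12, NM_001253864 from the internal start takes up 37.1 and 35.3 FPKM of the NSC bars and 4.80 to 8.50 FPKM of the STO bars, while both parts of the Tcf4 bars shrink together.

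The balance between the families also differed. The 4 ID genes summed to 178 and 198 FPKM in NSCs and to 234, 189 and 212 FPKM in STO cells. In FPKM, STO replicate 2 thus lay between the NSC samples and the totals overlapped. This overlap depends on the scaling, since all FPKM added up to less in the STO libraries. As a share of all FPKM in its library, the ID total was higher in every STO sample than in both NSC samples. The make-up of the ID total differed more. Id3 made up 71.9% and 70.3% of the ID total in NSCs and 28.9% to 31.3% in STO cells. Id1 made up 3.79% in both NSC samples and 46.6% to 48.0% in STO cells. Id2 contributed 23.5% and 25.4% against 16.9% to 19.4%, and Id4 0.808% and 0.513% against 4.57% to 5.11%.

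The E protein total was 210 and 218 FPKM in NSCs and 130, 126 and 120 FPKM in STO cells, without overlap, with means of 214 ± 5.55 FPKM (SD, n = 2) and 125 ± 5.16 FPKM (SD, n = 3). Their order was inverted between the cell types. In NSCs Tcf4 led with 46.2% and 44.3% of the total, followed by Tcf12 with 35.7% and 36.0% and Tcf3 with 18.1% and 19.7%. In STO cells Tcf3 led with 44.3% to 47.5%, followed by Tcf12 with 31.4% to 33.4% and Tcf4 with 19.9% to 23.5%. Tcf12 thus held the middle place in both. Within a library, Tcf4 exceeded Tcf3 by 2.55 and 2.25 times in NSCs, and Tcf3 exceeded Tcf4 by 2.24, 1.89 and 2.34 times in STO cells. The ratio of summed ID to summed E protein transcripts was 0.845 and 0.906 in NSCs and 1.80, 1.51 and 1.77 in STO cells, with means of 0.876 ± 0.0432 (SD, n = 2) and 1.69 ± 0.161 (SD, n = 3). It is a ratio of mRNA levels and no measure of protein.

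**Figure D4:**
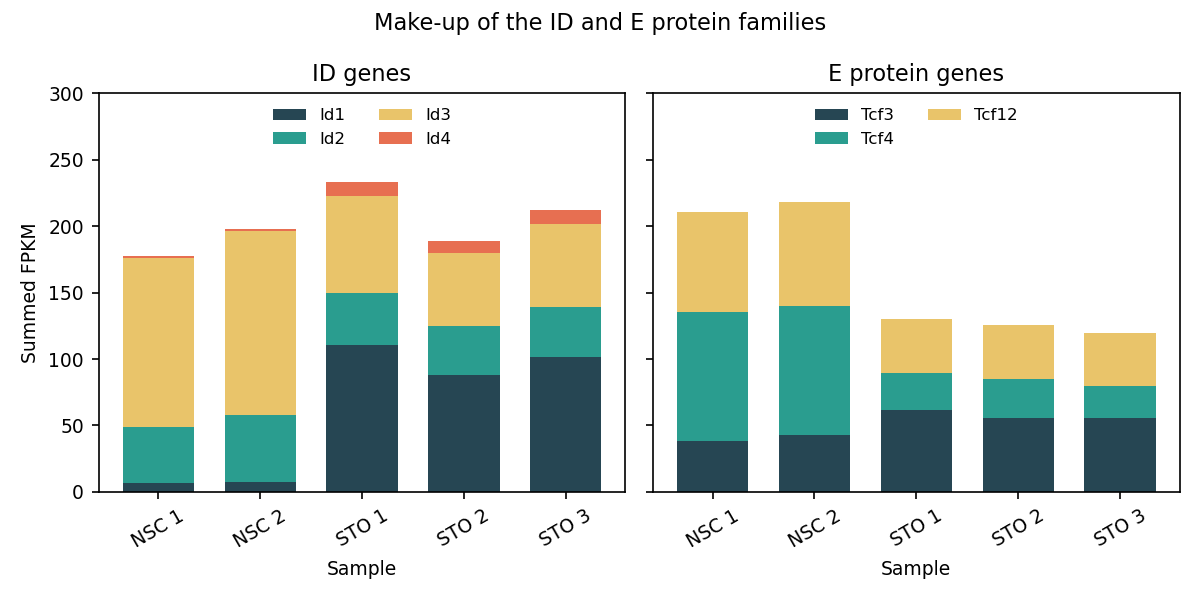
Summed FPKM of the ID genes (left) and of the E protein genes (right) in each of the 2 NSC and 3 STO samples, stacked by gene. The ID bars overlap in height, at 178 to 234 FPKM without rescaling between samples, and differ in make-up. The E protein bars fall from 210 and 218 FPKM in NSCs to between 120 and 130 FPKM in STO cells.

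Over all 7 members, the order of mean levels in NSCs was Id3, Tcf4, Tcf12, Id2, Tcf3, Id1 and Id4, and the only neighbours whose samples overlapped were Id2 and Tcf3. In STO cells the order was Id1, Id3, Tcf3, Tcf12, Id2, Tcf4 and Id4, and Id3 and Tcf3 overlapped. Id1 rose from the sixth place to the first and Tcf4 went from the second place to the sixth, while Id4 was last in both.

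For each member the 3 genes with the most similar values were sought by the Euclidean distance of log2(FPKM + 1) over the 5 samples. For Id1 these included Gpx8 (distance 0.38) and Nfkb2 (0.53), and for Id4 they were Phf1 (0.20), Sfrp1 (0.22), which encodes a secreted WNT antagonist, and Galnt17 (0.31). Id3 was nearest to Selenok (0.18), Glrx5 (0.25) and Snrpa (0.29), and Id2 to Atp6v1a (0.15), Fubp3 (0.16) and Septin8 (0.16). For the E proteins the nearest genes were Scap (0.13), Get4 (0.17) and Iscu (0.18) to Tcf3, Ctxn1 (0.21), Trp53inp2 (0.28) and Mid1ip1 (0.32) to Tcf4, and Smarcb1 (0.07), a subunit of the BAF chromatin remodeling complex, Rhoq (0.11) and Prkacb (0.14) to Tcf12. With 5 samples in 2 cell types, such likeness rests mostly on the 2 mean levels.

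The partners of the E proteins were read from a list of 31 tissue-restricted bHLH factors. Only 6 of them reached a mean of 1 FPKM in either cell type. All 6 were called, 3 in each direction, beside 85.7% of all genes tested. The partners of NSCs included Olig1 (964 and 1108 FPKM) and Olig2 (499 and 493 FPKM), both factors of the oligodendrocyte lineage and ventral progenitors, and Olig2 is also among the 7 neural stem cell markers above. In STO cells Olig1 and Olig2 were listed at 0 in all samples. STO cells instead had Twist2 at 104, 95.3 and 96.8 FPKM and Twist1 at 60.3, 54.1 and 57.1 FPKM, both factors of mesenchymal cells, with Twist2 listed at 0 and Twist1 at 0.137 and 0.303 FPKM in NSCs. Tal1 was low, at 0.872 to 1.19 FPKM in STO cells and at most 0.038 FPKM in NSCs, and was not tested without STO replicate 1, since its mean then fell under the limit of 1 FPKM. The summed level of the list was 1504 and 1646 FPKM in NSCs and 151 to 167 FPKM in STO cells, and 7 of the 31 genes were at 0 everywhere.

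Of 27 genes of the BMP and SMAD axis, which acts upstream of the ID genes, 21 were tested. Of these 14 were higher and 5 lower in STO cells, beside 41.9% and 43.7% of all genes tested. Their median difference was 0.58, beside -0.02 over all genes tested. The list pools ligands, receptors and signal carriers with antagonists and inhibitory factors, so these counts give no direction of the axis. The largest rises included Grem1 (at most 0.035 FPKM in NSCs, 90.6 to 96.3 FPKM in STO cells) and Fst (0.862 and 1.04 FPKM against 119 to 124 FPKM), which encode secreted antagonists of BMP or activin ligands. Chrd and the inhibitory factors Smad6 and Smad7 rose as well, Smad7 from 0.931 and 1.02 FPKM to between 6.45 and 8.49 FPKM. The largest falls were in the ligand Bmp7, at 35.7 and 38.2 FPKM in NSCs and listed at 0 in every STO sample, in the receptor Bmpr1b, at 10.2 and 11.2 FPKM against 0.164 to 0.213 FPKM, and in the receptor Acvr2b. The signal carriers Smad1 and Smad5 fell by 0.39 ± 0.06 and 0.43 ± 0.07 on the log2(FPKM + 1) scale (SE, limma adjusted p = 0.0013 and 9.06e-04). The carriers Smad9 and Smad4 went the other way and rose by 0.49 ± 0.06 and 0.23 ± 0.06 (SE, limma adjusted p = 2.39e-04 and 0.0075). Smad9 was low, at 1.28 to 1.44 FPKM in STO cells. The receptors Bmpr1a and Acvr1 rose by 0.58 ± 0.06 and 1.56 ± 0.06 (SE). The fall of Acvr2b was not called after quantile normalization (limma adjusted p = 0.15).

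ID proteins are short-lived, and of 5 genes of their turnover 3 were higher and 1 lower in STO cells. The shares over all genes tested were 41.9% and 43.7%. The median difference of the 5 genes was 0.28. Usp1, the deubiquitinase known to stabilise ID proteins, rose from 23.7 and 28.2 FPKM in NSCs to 97.8, 105 and 102 FPKM in STO cells, a difference of 1.93 ± 0.08 on the log2(FPKM + 1) scale (SE, limma adjusted p = 1.69e-06). Its activating partner Wdr48 and the ubiquitin ligase activator Cdc20 rose by 0.28 ± 0.06 and 0.34 ± 0.08 (SE), the latter at 0.24 and not called without NSC replicate 1 (limma adjusted p = 0.052). Cops5 fell by 0.39 ± 0.07 (SE), and Fzr1 stood at 29.7 and 30.7 FPKM against 26.3 to 29.7 FPKM and was not called (limma adjusted p = 0.28).

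Among 11 cofactors of E proteins and their complexes, 10 were tested, with a median difference of 0.40. Of these 6 were higher and 4 lower in STO cells, beside 41.9% and 43.7% of all genes tested. The corepressors Runx1t1 and Cbfa2t2 rose by 1.77 ± 0.09 and 0.90 ± 0.07 and the coactivator Ep300 by 0.67 ± 0.08 on the log2(FPKM + 1) scale (SE). The LIM-only genes fell, with Lmo1 at 26.3 and 26.1 FPKM and Lmo3 at 5.14 and 4.43 FPKM in NSCs and both listed at 0 in all STO samples, and with Lmo2 at 1.59 and 1.47 FPKM against at most 0.115 FPKM. The fall of Lmo4 was not called after rescaling to TPM (limma adjusted p = 0.070), and Crebbp was called with a difference of 0.42 close to the threshold (limma adjusted p = 0.049). Its difference lay between 0.32 and 0.47 without NSC replicate 1, NSC replicate 2, STO replicate 1 or STO replicate 2, and was not called in these fits (limma adjusted p = 0.12 to 0.30).

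A further class of HLH repressors, the HES, HEY and BHLHE factors, contains 11 listed genes, of which 7 were tested and all 7 were called as lower in STO cells, beside 43.7% of all genes tested. These include targets of Notch signaling. Hey1 had 41.5 and 43.5 FPKM in NSCs and at most 0.092 FPKM in STO cells, Hes5 had 23.3 and 22.2 FPKM against at most 0.030 FPKM, and Hes1 had 19.2 and 20.9 FPKM against 2.48 to 3.39 FPKM. The smallest of the falls, in Bhlhe41 (-0.28), was -0.10 after quantile normalization and was not called after rescaling to TPM (limma adjusted p = 0.14), after quantile normalization (0.33), without NSC replicate 1 (0.10) or without STO replicate 2 (0.0504).

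**Figure D5:**
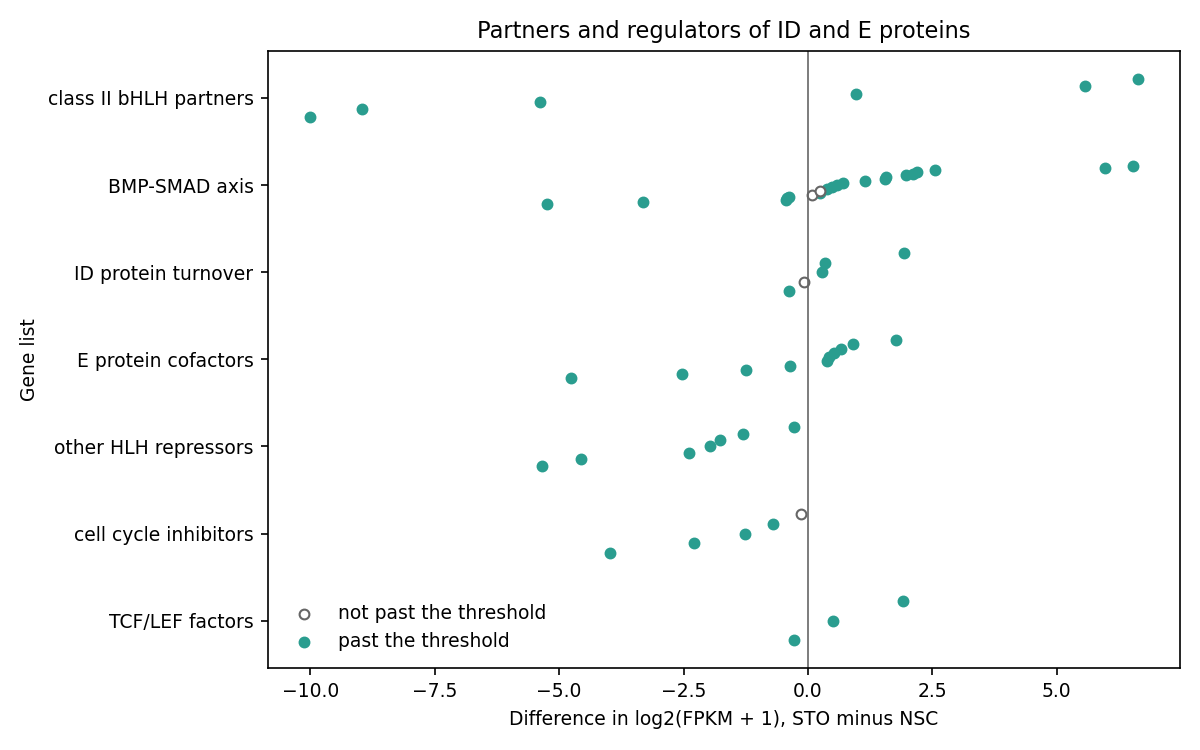
Difference of log2(FPKM + 1) between STO cells (3 samples) and NSCs (2 samples) for the tested genes of each list, with 1 point per gene, filled where the limma adjusted p-value was under 0.05. The 6 bHLH partners split into 3 below and 3 above 0, and all 7 of the other HLH repressors lie below 0.

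Markers of differentiated neural cells also moved with the cell type, in a comparison where 43.7% of all genes tested were called as lower in STO cells. Of 4 astrocyte markers all 4 were called as lower in STO cells, with a summed level of 70.4 and 71.4 FPKM in NSCs against 0.242 to 0.432 FPKM. Of 4 oligodendrocyte markers 3 were tested and were lower, with 123 and 127 FPKM against 0.977 to 1.14 FPKM, mostly from Mbp at 83.4 and 88.3 FPKM in NSCs. The defining astrocyte marker Gfap was at 15.9 and 16.9 FPKM in NSCs and at most 0.016 FPKM in STO cells. The paper's RT-PCR of cultured NSCs took Gfap as a negative control, and how it relates to these RNA-seq levels was not tested. Of 6 neuron markers 5 were tested and 4 were lower, with a summed level of 119 FPKM in each NSC sample against 12.3 to 12.9 FPKM. Most of the NSC sum was Map2 at 100.4 and 102 FPKM, and most of the STO sum was Tubb3, which stood at 9.25 and 8.14 FPKM in NSCs and 7.84 to 8.57 FPKM in STO cells and was not called (limma adjusted p = 0.48). The defining neuron marker Rbfox3 was at 0.624 and 0.405 FPKM in NSCs and listed at 0 in STO cells. Microglia markers summed to at most 0.383 FPKM and endothelial markers to at most 0.576 FPKM in any sample. The part of differentiated cells in the levels of the ID and E protein genes was not tested, and in bulk samples fewer cells that express a gene and less RNA per cell cannot be told apart.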

How the data were processed

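RNA-seq of 2 NSC and 3 STO samples, grouped by their labels, was examined. By the paper's methods, reads of stranded mRNA libraries were trimmed, aligned to mm9 with Hisat2 and quantified by Cufflinks 2.2.1 on RefSeq. The authors deposited FPKM values with confidence bounds, also in FPKM, for 40201 transcripts, without read counts. Symbols came from the RefSeq identifiers of a GRCm38.p6 table (39951 matched), and FPKM were summed per symbol. Coordinates are those of the files with starts counted from 1. Implied fragments take the distance to the upper bound as 2 SD of a Poisson count, cover counting error only, and are approximate. limma 3.58.1 (R 4.3.3, eBayes with a trend) was fitted on log2(FPKM + 1) over all genes, and separately over all transcripts, with a mean of at least 1 FPKM in either cell type, and was tested on simulated data. Python 3.11.15, pandas 2.3.3 and matplotlib 3.10.9 were used otherwise.

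The members and gene lists were chosen with earlier results of these data known. Named genes were the members, their transcripts, up to 3 rises and 3 falls of each list, and the 3 nearest genes of each member. Other genes of the lists, among them Chrd, Smad1, Smad4, Smad5, Smad6, Smad7, Smad9, Bmpr1a, Acvr1 and those whose call was lost under an alternative, were named after their values were seen. Alternatives changed the pseudocount (0.1), the filter, the scaling, the trend, the replicate block, the samples and the transcripts included. A few genes that the rule names are not reported here. The compartments, loops and other Hi-C data were not analysed here.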

Additional observations from a re-analysis of the deposited data

How the results depend on the processing

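Under the 14 alternatives, each of Id1, Id3, Id4, Tcf3, Tcf4 and Tcf12 kept its direction and stayed past the threshold, from 3.56 to 3.90 for Id1, -1.17 to -0.90 for Id3, 2.21 to 2.99 for Id4, 0.41 to 1.09 for Tcf3, -1.88 to -1.60 for Tcf4 and -0.94 to -0.75 for Tcf12 on the log2 scale. Id2 was called in 9 of the 14 and ranged from -0.41 to -0.11 (limma adjusted p from 0.0085 to 0.27). When calls also needed an absolute log2 difference of at least 1, the higher genes numbered 2099 in place of 5147, the lower genes 2613 in place of 5371, and the lower members 2 in place of 4. With only the most abundant transcript of each gene, the E protein total was 103 FPKM in NSCs and 61.5 FPKM in STO cells and the ratio of ID to E protein levels 1.82 and 3.44, since this drops most transcripts of the E proteins. Rescaling to TPM moved the share of calls that were higher in STO cells from 48.9% to 55.7%. Both cell types have replicates 1 and 2 in their labels, which nothing pairs, and the deviations of same-numbered samples from their group means correlated at 0.0029 and 0.065. The replicate block, under which STO replicate 3 has no partner, gave 3 members higher and 3 lower, took the call from Id2, and gave 4988 genes higher and 5249 lower. For member transcripts, 13 values lost and 2 gained a call over the alternatives and none changed direction. Depth limits Id4 in NSCs most.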

Other observations

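E proteins are known to activate the promoters of cell cycle inhibitor genes, and 5 such genes were listed. All 5 were tested, and 4 were lower in STO cells, beside 43.7% of all genes tested. Cdkn1a had 262 and 249 FPKM in NSCs and 110, 101 and 106 FPKM in STO cells, Cdkn2b had 68.7 and 63.8 FPKM against 13.7, 11.4 and 13.0 FPKM, and Cdkn1c had 14.2 and 15.1 FPKM and was listed at 0 in every STO sample. Cdkn2a had 42.2 and 37.5 FPKM against 37.7, 34.1 and 37.0 FPKM and was not called (limma adjusted p = 0.15). Whether these levels are tied to the ID and E proteins was not tested.

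The TCF and LEF factors of the WNT pathway share part of their names with the E proteins but belong to another protein family. Tcf7l1 had 3.57 and 3.56 FPKM in NSCs and 16.2, 16.9 and 15.2 FPKM in STO cells, a difference of 1.90 ± 0.06 in log2(FPKM + 1) (SE, limma adjusted p = 4.05e-07). Tcf7l2 had 5.44 and 5.13 FPKM against 8.12, 8.88 and 6.79 FPKM (limma adjusted p = 0.0042), the opposite direction to Tcf4. Its difference of 0.50 in log2(FPKM + 1) stayed at 0.54 without NSC replicate 1 and 0.46 without NSC replicate 2, where the STO samples alone give the spread and it was not called (limma adjusted p = 0.058 and 0.081). Tcf7 was low throughout, at 1.49 and 1.65 FPKM against 0.993 to 1.18 FPKM. It was called as lower in STO cells (-0.29, limma adjusted p = 0.0039) but as higher after quantile normalization (0.16, limma adjusted p = 0.048). Its direction therefore depends on the scaling. Lef1 was under 0.5 FPKM in every sample and was not tested.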
